A study of Mus musculus with 6 samples.

Results

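The cytosolic ribosomal protein genes encode the proteins of the ribosome that translates nuclear messages in the cytoplasm. Members were the protein-coding genes of the GENCODE M21 annotation whose symbol names a large-subunit protein (Rpl, Rplp) or a small-subunit protein (Rps, Rpsa), without the Rps6k kinases. This gave 83 of the 55421 gene identifiers in the count tables, of which 51 encode large-subunit and 32 small-subunit proteins. The study sequenced RNA from pancreatic islets of wild-type (WT) C57BL/6 mice in 2 groups, vehicle and the ligand insB:9-23, with 3 libraries each. Both groups share genotype, strain and tissue, and differ in the treatment label. The sources used here give neither the dose, route and duration of the treatment nor the age of the mice, nor whether living mice or isolated islets received the ligand. Nothing ties a library to 1 animal, so the p-values below measure the spread between libraries, which may be technical.

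Each ribosome is built from a large subunit, which joins amino acids, and a small subunit, which reads the messenger RNA, and nearly every ribosomal protein is present once per ribosome. Their messages make up one of the most abundant classes in most cells, and typically begin with a run of pyrimidines through which the mTOR pathway and the RNA-binding protein LARP1 control their translation. In islets, the synthesis of insulin makes translation a major activity of the beta cells. Ribosomal protein genes are also the source of many processed pseudogenes, which are copies of the messenger RNA inserted elsewhere in the genome.

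That copying bears on every count below, so the clearest case is shown first. The coding sequences of Rps27 (GRCm38 chromosome 3, 90212522 to 90213651, minus strand) and of Rps27rt (chromosome 9, 114982366 to 114982739, minus strand) are both 252 bases long, and 0 bases differ, so that reads from inside this sequence cannot be told apart by gene:
Rps27 and Rps27rt: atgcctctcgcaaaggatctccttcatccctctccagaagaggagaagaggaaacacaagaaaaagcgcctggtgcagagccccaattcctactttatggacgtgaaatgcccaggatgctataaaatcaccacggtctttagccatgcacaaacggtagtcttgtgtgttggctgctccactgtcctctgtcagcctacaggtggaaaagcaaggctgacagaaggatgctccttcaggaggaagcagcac

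Other paralogs differ more. Rpl39 (chromosome X, 37082520 to 37085402, minus strand) and its paralog Rpl39l (chromosome 16, 10170226 to 10174911, plus strand) have coding sequences of 153 bases with 23 differences, an identity of 85.0%. Capitals mark the bases that differ:
Rpl39: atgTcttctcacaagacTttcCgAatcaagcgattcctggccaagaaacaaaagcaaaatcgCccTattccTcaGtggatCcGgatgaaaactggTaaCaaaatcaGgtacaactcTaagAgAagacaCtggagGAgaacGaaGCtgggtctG
Rpl39l: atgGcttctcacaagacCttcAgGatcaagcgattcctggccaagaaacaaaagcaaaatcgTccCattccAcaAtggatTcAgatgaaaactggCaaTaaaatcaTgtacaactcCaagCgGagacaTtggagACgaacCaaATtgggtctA

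Pyrimidine-rich stretches are visible around the annotated start in the reference sequence of some members. They can lie before that start, outside the annotated message, as the first marked words of Rpl35 and Rps27 below do. The examples below were picked from windows that hold the word CTTTC, and most windows of this length in the members lack it. RefSeq promoters (GRCm38.p6) were matched by symbol for 63 of the 83 members, and each line below gives 30 bases centred on the annotated start, with the word CTTTC in capitals:
Rplp2, chr7:141447636-141447665, plus strand: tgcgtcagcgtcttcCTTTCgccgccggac
Rpl18, chr7:45718056-45718085, plus strand: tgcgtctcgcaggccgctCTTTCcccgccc
Rpl28, chr7:4792950-4792979, plus strand: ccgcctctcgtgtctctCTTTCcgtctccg
Rpl35, chr2:39005117-39005146, minus strand: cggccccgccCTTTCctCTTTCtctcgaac
Rps10, chr17:27635230-27635259, minus strand: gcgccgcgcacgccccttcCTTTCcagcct
Rps27, chr3:90213634-90213663, minus strand: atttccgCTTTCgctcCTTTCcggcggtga

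A gene with several annotated starts was counted once if any of them matched. Within 30 bases on each side of the start, CTTTC stood on the gene's own strand in 22 members (34.9%), against 9.18% of all 27025 genes in the table, and on either strand in 46.0% against 16.9%. The word CGGAAG, within 100 bases before and 50 after the start, was present on either strand in 32 members (50.8%), against 13.5% of all genes. TATAAA, within 50 bases on each side, was present on either strand in 5 members (7.94%), against 5.77%. Either strand means the word itself or its reverse complement. Each word was searched independently, and matches to CTTTC and CGGAAG can share their end base. The 3 words and their windows were chosen after the members' promoters had been viewed, and a match is a description of letters, not a binding site.

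The libraries held 52052808 to 58880189 counted reads each. Across the 17016 genes tested, 14 (0.0823%) passed an adjusted p of 0.05 by edgeR's quasi-likelihood test with Benjamini-Hochberg adjustment. The islet label was checked against marker genes. The 15 beta-cell markers took 9.75% to 14.0% of counts, with Mafa at 0 in all 6 libraries. The 26 markers of exocrine acinar cells took 16.5% to 19.2% in the vehicle and 18.2% to 27.8% in the insB:9-23 libraries. The 8 amylase genes, also acinar but not among these markers, took a further 9.33% to 10.9% and 10.6% to 16.5%. Genes of the mitochondrial genome could not serve as a quality measure, because 27 of 37 were at 0 in every library.

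No ribosomal protein gene passed the adjusted threshold: among the 80 members tested, edgeR called 0, and their smallest adjusted p was 0.881. At an unadjusted p under 0.05, 36 of 80 (45%) were higher in the insB:9-23 libraries and 0 were lower. The same rule marked 2.74% of all genes tested as higher and 2.81% as lower, and 2.82% and 4.23% of the 8376 genes with a mean of at least 10 CPM, a level that the tested members also reached. The fitted log2 fold change (insB:9-23 over vehicle) was above 0 in 77 of 80 members, against 51.5% of all genes and 44.9% of those at 10 CPM or more. Its median was 0.22 over the members, with a range from -0.04 to 0.47, and 0.01 over all genes tested. In 32 members every insB:9-23 library stood above every vehicle library, and in 0 members below. Among all genes, 6.4% lay wholly above in this way and 7.12% wholly below, and among those at 10 CPM or more 5.77% and 9.83%. The adjusted threshold was passed by 0.131% of the genes at that level. Members are not replicates of the treatment, and all these counts come from the same 6 libraries. DESeq2 and limma-voom, run on the same libraries, also called 0 members after adjustment.

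Both subunits showed this pattern. Of 48 large-subunit genes tested, 45 had a fold change above 0 and 18 (37.5%) were higher at an unadjusted p under 0.05. Their median log2 fold change was 0.21. Of 32 small-subunit genes, all 32 were above 0, 18 (56.25%) were higher at that p and the median was 0.23. Among all genes tested, 2.74% were higher at that p. The groups lay wholly apart upward in 17 large-subunit (35.4%) and 15 small-subunit genes (46.9%), against 6.4% of all genes. The subunits were not tested against each other. The ratio of large-subunit to small-subunit counts was 1.515, 1.536 and 1.503 in vehicle libraries 1 to 3, and 1.520, 1.462 and 1.489 in insB:9-23 libraries 1 to 3, so that the ranges overlapped.

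**Figure D1:**
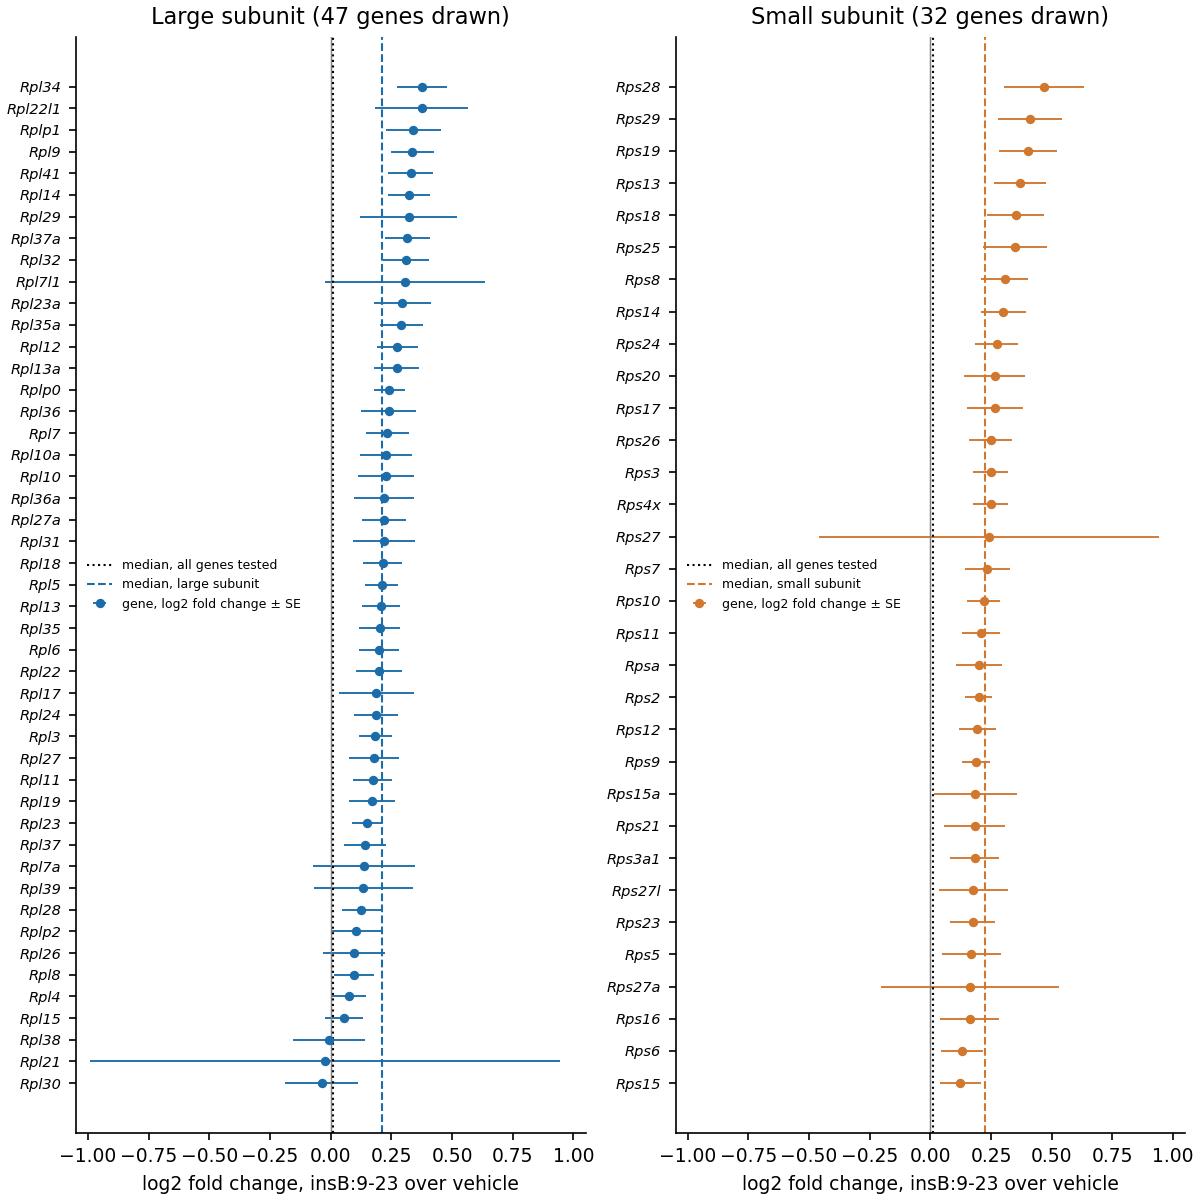
Fitted log2 fold change of the tested ribosomal protein genes, 1 large-subunit gene not drawn, insB:9-23 over vehicle, with its standard error; the dashed line is the median of each subunit and the dotted line the median of all genes tested. All but Rpl21, Rpl30 and Rpl38 lie right of 0, and Rpl21 and Rps27 have the widest errors.

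Levels are given as CPM, read counts on a common library size after TMM scaling, in the order of replicates 1 to 3. The stalk of the large subunit, which recruits translation factors, is made of Rplp0, Rplp1 and Rplp2. Rplp0, the stalk's base, was at 472, 468 and 483 CPM in the vehicle libraries and at 535, 546 and 601 CPM in the insB:9-23 libraries. The groups did not overlap, and the log2 fold change was 0.24 ± 0.06 (SE; edgeR unadjusted p = 0.0096, adjusted p = 0.88). Rplp1 was at 36.1, 35.3 and 41.5 CPM against 42.7, 47.4 and 53.0 CPM, a log2 fold change of 0.34 ± 0.11 (unadjusted p = 0.024), again without overlap. Rplp2, the other partner at the tip, was at 82.4, 74.9 and 85.7 CPM against 89.7, 76.4 and 95.1 CPM. Its groups overlapped, since insB:9-23 library 2 lay below vehicle libraries 1 and 3, and its log2 fold change of 0.10 ± 0.10 was about the size of its error.

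Among the other large-subunit proteins, Rpl9 and Rpl34 stood out by a small unadjusted p and by the size of the fold change. Rpl9, whose message shares 93.3% of its 50-base words with transcripts of other genes, was at 109.6, 105 and 120.4 CPM against 128, 144 and 151 CPM, a log2 fold change of 0.34 ± 0.09 (edgeR unadjusted p = 0.0092, adjusted p = 0.88). Rpl34 had the largest log2 fold change of the subunit, 0.38 ± 0.10, with 58.0, 48.9 and 55.9 CPM against 66.6, 77.6 and 67.2 CPM. In both genes vehicle library 2 was the lowest, and the groups did not overlap.

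The most abundant large-subunit genes per kb of exon were Rpl4, Rplp0 and Rpl8. Rpl4, a protein of the exit tunnel, was at 664, 630.0 and 695 CPM against 662, 698 and 737 CPM, and Rpl8, which lies close to the catalytic centre, at 300.1, 314 and 362 CPM against 353, 347 and 345 CPM. Their groups overlapped, and their log2 fold changes were 0.08 ± 0.07 and 0.10 ± 0.08. Rpl3, another protein close to the catalytic centre, was at 343, 331 and 367 CPM against 374, 405 and 405 CPM, which is 0.18 ± 0.07 on the log2 scale without overlap (unadjusted p = 0.033). Rpl7 and Rpl10, of which the latter is added late in assembly, overlapped between groups. Rpl7 was at 272, 265 and 301 CPM against 294, 345 and 345 CPM, and Rpl10 at 282, 274 and 325 CPM against 301, 343 and 386 CPM. In both, insB:9-23 library 1 lay inside the vehicle range, and the log2 fold changes were 0.23 ± 0.09 (unadjusted p = 0.041) and 0.23 ± 0.12.

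In the small subunit the smallest unadjusted p belonged to Rps2, Rps3 and Rps13, 3 of its core proteins. Rps2 was at 322, 304 and 317 CPM in the vehicle libraries and at 346, 373 and 362 CPM in the insB:9-23 libraries, a log2 fold change of 0.20 ± 0.06 (edgeR unadjusted p = 0.013, adjusted p = 0.88). Rps3, which lies where the messenger RNA enters and shares only 2.96% of its 50-base words with other genes, was at 243, 222 and 243 CPM against 263, 296 and 283 CPM, which is 0.25 ± 0.07 on the log2 scale. Rps13 was at 39.7, 33.6 and 39.5 CPM against 43.9, 49.8 and 51.9 CPM, which is 0.37 ± 0.11. In all 3 genes each insB:9-23 library exceeded each vehicle library.

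The largest log2 fold changes of the small subunit were those of Rps28, Rps29 and Rps19. Rps28, the least counted member outside the paralogs, was at 12.2, 9.13 and 11.6 CPM against 13.0, 16.9 and 15.8 CPM, a log2 fold change of 0.47 ± 0.16 (edgeR unadjusted p = 0.029). Rps29, a short zinc-binding protein, was at 56.6, 46.6 and 52.7 CPM against 57.8, 73.8 and 75.5 CPM, which is 0.41 ± 0.13. Rps19, known for its mutation in Diamond-Blackfan anaemia, was at 59.03, 56.4 and 73.2 CPM against 77.1, 88.9 and 83.0 CPM, which is 0.40 ± 0.12. The groups did not overlap in these genes, although the lowest insB:9-23 value of Rps29 exceeded its highest vehicle value by little. For Rps28 this did not hold with its near-identical copies summed, when it was at 23.3, 19.2 and 11.6 CPM against 24.3, 25.3 and 15.8 CPM, overlapping, at 0.27 ± 0.31 on the log2 scale (unadjusted p = 0.41).

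The most abundant small-subunit genes per kb of exon were Rps3a1, Rps15 and Rps6, and their groups overlapped. Rps3a1 was at 358, 315 and 385 CPM against 362, 422 and 416 CPM, with a log2 fold change of 0.18 ± 0.10. Rps15 was at 164, 162 and 189 CPM against 175, 198 and 188 CPM, and Rps6, the substrate of the S6 kinases, at 277, 283 and 319 CPM against 293, 333 and 336 CPM. Their log2 fold changes were 0.12 ± 0.09 and 0.13 ± 0.09. Rpsa, a ribosomal protein also described as a laminin receptor, was at 400.3, 405 and 431 CPM against 414, 506 and 503 CPM, where insB:9-23 library 1 fell inside the vehicle range and the other two lay above it.

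**Figure D2:**
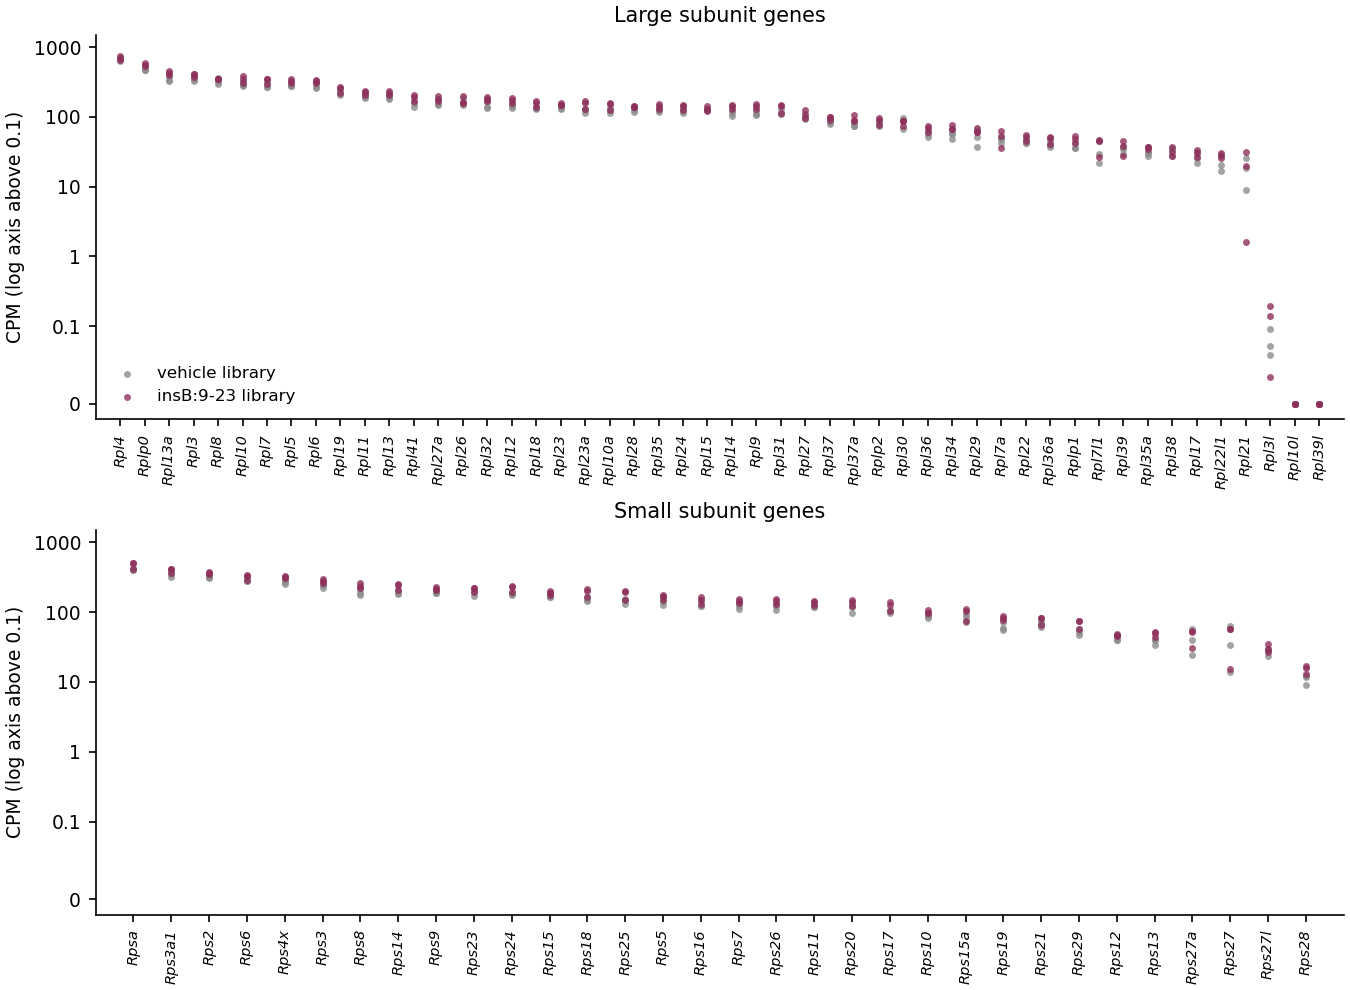
CPM of the members, 1 large-subunit gene not drawn, in each of the 6 libraries (log axis above 0.1), ordered by mean level within each subunit, grey for vehicle and purple for insB:9-23. Outside the paralogs, the means run from 13.1 to 681 CPM and the 6 libraries of most members lie close together, while Rpl10l and Rpl39l are at 0 and Rpl3l is close to it.

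Members that enter the same particle were counted at very different levels. Outside the paralogs, the mean over 6 libraries ran from 13.1 CPM (Rps28) to 681 CPM (Rpl4), with a median of 134 CPM. Per kb of coding sequence, these small-subunit genes lay between 63.2 (Rps28) and 501 (Rps24) CPM. The large-subunit genes, again without the paralogs, lay between 36.8 (Rpl21) and 2268 (Rpl41) CPM per kb, the latter having the shortest coding sequence of the members. Per kb of exon, the range was from 5.19 (Rpl21) to 385 (Rps3a1) CPM. Reads assigned to near-identical copies are not included, so that these are levels of counted reads and not of message.

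Of the 6 paralogs, 3 were at or near 0. Rpl10l and Rpl39l, both known from male germ cells, had 0 counts in all 6 libraries, which for 3 counts allows at most 0.0510 to 0.0576 CPM of each library's total. Rpl3l, the paralog of heart and skeletal muscle, had 4, 6 and 4 counts in the vehicle and 2, 8 and 9 counts in the insB:9-23 libraries. This was at most 0.0486% of Rpl3 in any library. These 3 genes, with a mean under 1 CPM in both groups, were the only members left out of the test by the filter on low counts.

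The other paralogs were readily counted. Rpl22l1 was at 20.4, 17.0 and 27.8 CPM in the vehicle and at 28.1, 25.7 and 30.7 CPM in the insB:9-23 libraries, between 40.2% and 61.9% of Rpl22. Its log2 fold change of 0.38 ± 0.19 came with overlapping groups. Rpl22 itself was at 42.5, 42.4 and 46.6 CPM against 45.4, 54.5 and 51.0 CPM, also overlapping, with 0.20 ± 0.09 on the log2 scale. Rpl7l1 stood at 22.1, 44.6 and 29.3 CPM against 26.8, 45.05 and 46.8 CPM, between 8.12% and 16.9% of Rpl7. Rps27l, a known target of p53, was at 23.4, 29.9 and 28.0 CPM against 27.1, 29.6 and 35.3 CPM, with a log2 fold change of 0.18 ± 0.14. Rpl39, the expressed partner of Rpl39l at the mouth of the exit tunnel, was at 34.3, 29.1 and 37.5 CPM against 38.0, 45.5 and 27.3 CPM, and held both the highest and the lowest value in the insB:9-23 group.

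Across the 6 libraries, 62 of 80 tested members varied by less than 1.5 times between their highest and lowest library. Only 4 varied by at least 2 times, and they were named after their values were seen: Rpl21 (19.7 times), Rps27 (4.60 times), Rps27a (2.35 times) and Rpl7l1 (2.12 times). Rpl21 was at 25.9, 9.05 and 18.4 CPM against 31.4, 19.5 and 1.59 CPM, with no order by group. Its log2 fold change of -0.02 ± 0.97 carried the largest error of the members. Of the remaining members with a fold change below 0, also named after their values were seen, Rpl30 was at 95.9, 67.5 and 91.2 CPM against 74.2, 87.1 and 87.0 CPM, and Rpl38 at 35.7, 27.7 and 33.7 CPM against 27.7, 31.8 and 37.1 CPM. Both overlapped, at -0.04 ± 0.15 and -0.01 ± 0.15 on the log2 scale.

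Near-identical copies were counted with their own, unstable values. A copy was taken as a pseudogene, or a gene named after the member, that shares at least 25% of the member's 50-base words. There were 244 such copies of 60 members, of which 109 were at 0 in every library. Of 39 copies that reached 5 CPM somewhere, 25 were at 0 in another library. Rps27 and Rps27rt, whose coding sequence is printed above, were apart in 4 of the libraries and close together in vehicle library 2 and insB:9-23 library 2. Rps27 was at 13.7, 33.6 and 62.8 CPM against 57.9, 56.8 and 15.5 CPM, and Rps27rt at 69.7, 35.8 and 24.2 CPM against 14.8, 52.5 and 68.2 CPM. Summed with all copies of Rps27, the values were 83.3, 70.2 and 87.0 CPM against 72.7, 109 and 85.0 CPM, and the highest library was 1.56 times the lowest instead of 4.60 times. Rps27l, between 44.6% and 227% of Rps27, exceeded it in vehicle library 1 and insB:9-23 library 3, the libraries with the lowest Rps27.

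Rps27a, which encodes a ubiquitin fused to a small-subunit protein, did not become steadier. It was at 40.1, 24.1 and 56.6 CPM against 30.3, 51.3 and 53.7 CPM, while its copy Rps27a-ps2 was at 94.5, 0 and 0 CPM against 95.9, 0 and 0 CPM. Summing raised the ratio of highest to lowest library from 2.35 to 5.58 times. For Rpl10, the copy Rpl10-ps6 was at 37.6, 60.6 and 34.8 CPM against 78.2, 80.3 and 0 CPM, and Rpl10-ps5 at 0 in 4 libraries and at 15.5 and 22.9 CPM in insB:9-23 libraries 2 and 3. With all its copies summed, Rpl10 no longer overlapped between groups (0.28 ± 0.08, unadjusted p = 0.013). Over all tested members, summing gave 37 higher at an unadjusted p under 0.05, against 2.73% of all genes in that fit. Of these 37 members, 33 were among the 36 without summing.

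A single copy was called by edgeR. Gm15710, a processed pseudogene (chromosome 5, 92140294 to 92140929, minus strand) that shares 73.5% of the 50-base words of Rpl13 and lies inside the span of Uso1 on its opposite strand, was at 0, 0 and 0 CPM in the vehicle and at 113, 137 and 129 CPM in the insB:9-23 libraries (adjusted p = 0.0014). With the replicate number as a block, although the labels state no pairing, its adjusted p was 0.364. Against 3 counts per vehicle library, and on library totals, the insB:9-23 mean is at least 2081-fold higher. Rpl13 itself was at 187, 181 and 206 CPM against 207, 222 and 234 CPM, a log2 fold change of 0.21 ± 0.08 (unadjusted p = 0.037, adjusted p = 0.88). With its copies summed, Rpl13 was at 191 ± 12.8 CPM (SD, n = 3) against 347 ± 23.6 CPM (n = 3), a log2 fold change of 0.86 ± 0.08 that passed the adjusted threshold in edgeR (adjusted p = 0.0474), as 0.0826% of all genes did in that fit. This call rests on the reads assigned to Gm15710, and Uso1 was at 222 to 242 CPM against 209 to 272 CPM, with overlapping groups. The sources used here do not say how reads with several equal matches were assigned or whether strand was used in counting.

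**Figure D3:**
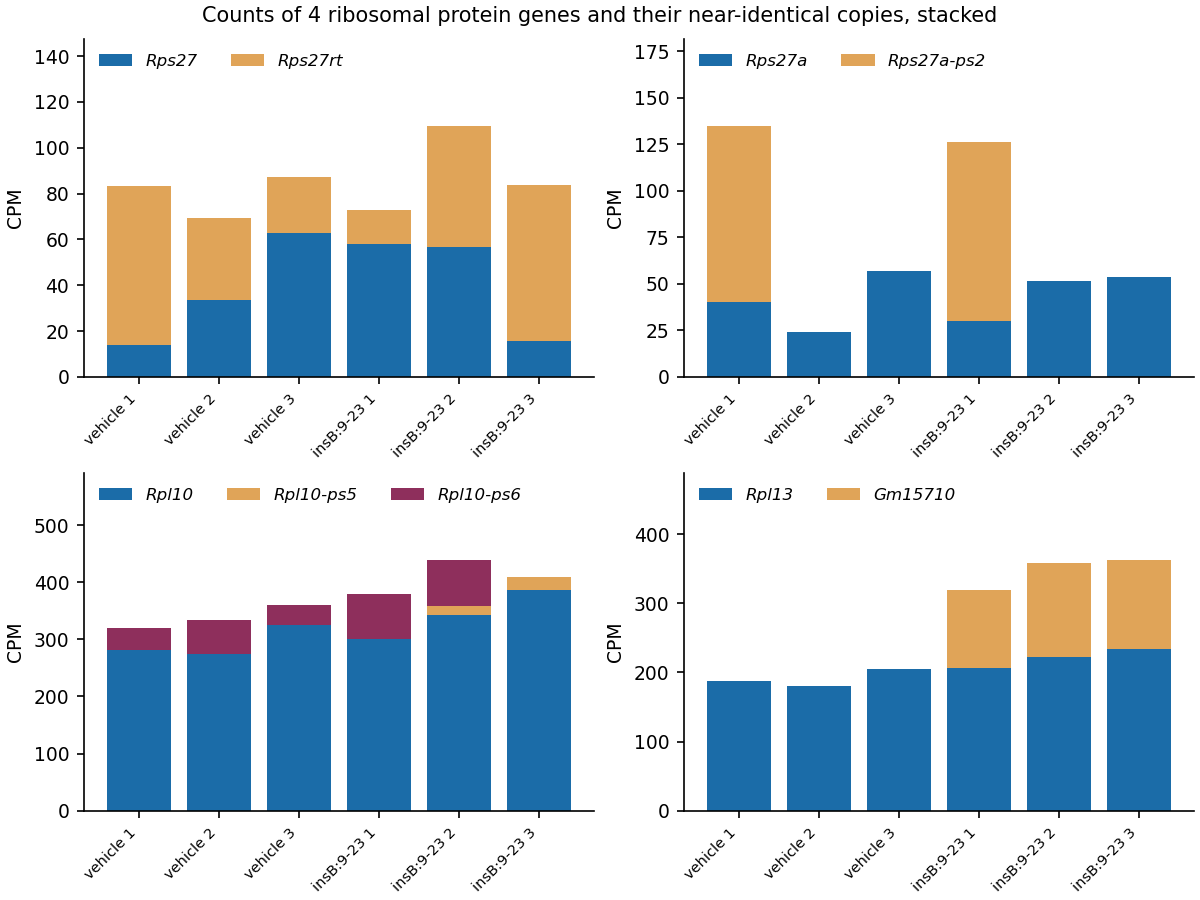
CPM of 4 ribosomal protein genes (blue) stacked with the listed near-identical copies (other colours) in each of the 6 libraries; only the copies named in the legends are drawn. The copies Rps27a-ps2 and Gm15710 are at 0 in 4 and 3 libraries and near 95 or above 110 CPM in the others.

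The members were also split by how much of their sequence is shared. The 32 tested members that share under 50% of their 50-base words had a median log2 fold change of 0.21, with 32 above 0. Of the 32, 15 (46.9%) were higher at an unadjusted p under 0.05 and 16 (50%) were without overlap between groups. The 48 that share at least 50% had a median of 0.22, with 45 above 0. Of the 48, 21 (43.75%) were higher at that p and 16 (33.3%) were without overlap. Among all genes tested, 51.5% were above 0, 2.74% were higher at that p and 6.4% lay wholly above. Small nucleolar RNA genes lie within 30 of the 83 members, and the medians were 0.20 for the 30 tested hosts and 0.23 for the 50 other members. These splits were not tested against each other.

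Library by library, the shift was not uniform within groups. The median deviation of the members from their own mean over 6 libraries was -0.12, -0.20 and -0.01 on the log2 scale in vehicle libraries 1 to 3, and -0.02, 0.19 and 0.18 in insB:9-23 libraries 1 to 3. Libraries 2 and 3 of the insB:9-23 group were thus high, vehicle libraries 1 and 2 low, and vehicle library 3 and insB:9-23 library 1 in the middle with hardly a difference. In 41 of 80 members vehicle library 3 stood above insB:9-23 library 1. The highest value belonged to insB:9-23 library 2 in 37 members and to insB:9-23 library 3 in 38, and the lowest to vehicle library 2 in 60.

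**Figure D4:**
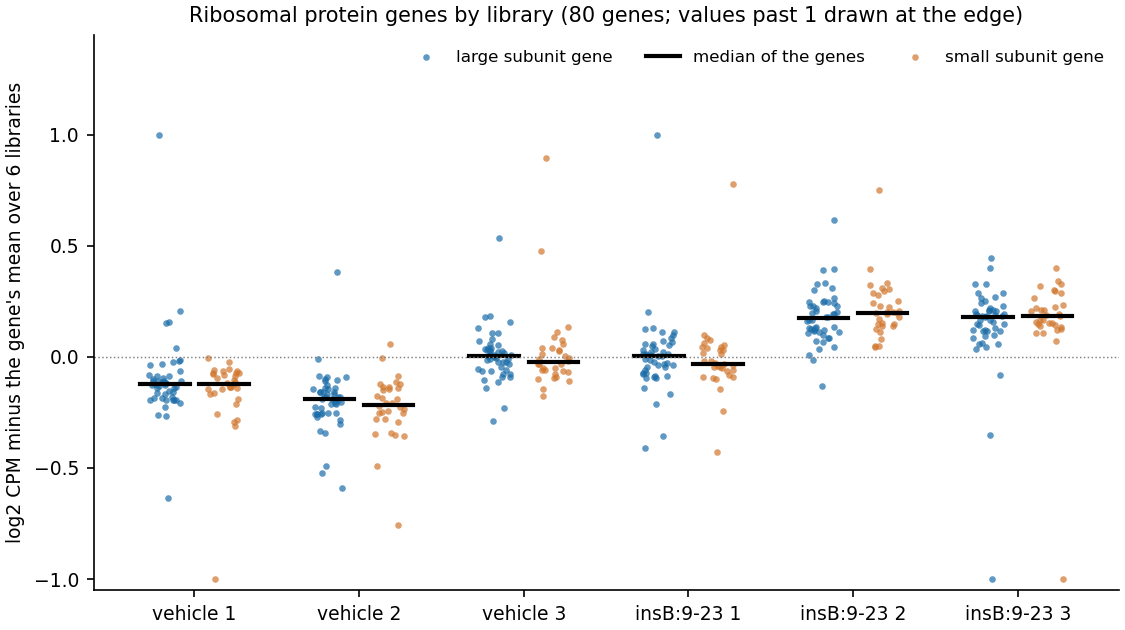
Log2 CPM of each tested member minus its mean over 6 libraries, by library, for large-subunit (blue) and small-subunit (orange) genes; black bars are medians. Vehicle 3 and insB:9-23 1 sit near 0, while insB:9-23 2 and 3 lie above and vehicle 1 and 2 below.

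The count of 36 members therefore depended on single libraries. It was 15 without vehicle library 1, where 2.14% of all genes were higher at that p, 13 without vehicle library 2 (2.25% of all genes) and 42 without vehicle library 3 (2.77%). It was 55 without insB:9-23 library 1 (2.68%), 19 without insB:9-23 library 2 (3.19%) and 16 without insB:9-23 library 3 (2.58%). Over these 6 fits the median log2 fold change of the members lay between 0.17 and 0.28, with 76 to 80 of 80 members above 0. With the replicate number as a block, 27 members were higher at an unadjusted p under 0.05, against 1.96% of all genes.

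Scaling moved the members' median and that of all genes together. With library totals alone, without TMM factors, the median log2 fold change of all genes moved from 0.01 to -0.15, and 30.6% of them lay above 0 in place of 51.5%. The members' median moved from 0.22 to 0.06, with 67 of 80 above 0 and 0 higher at an unadjusted p under 0.05, against 0.799% of all genes. The distance between the members' median and that of all genes was 0.208 under both. Scaling multiplies all genes of a library by the same factor, so this distance could hardly differ and is no test of the shift. As a share of each library's total, the members made up 1.26%, 1.19% and 1.30% for vehicle 1 to 3, a mean of 1.25% ± 0.0576 (SD, n = 3). For insB:9-23 1 to 3 the share was 1.26%, 1.49% and 1.15%, a mean of 1.30% ± 0.174 (n = 3), and the groups overlapped. Of the protein-coding counts outside the acinar markers and amylase genes, they took 1.71%, 1.68% and 1.88% against 1.89%, 2.11% and 2.08%, without overlap but with vehicle library 3 and insB:9-23 library 1 nearly equal.

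**Figure D5:**
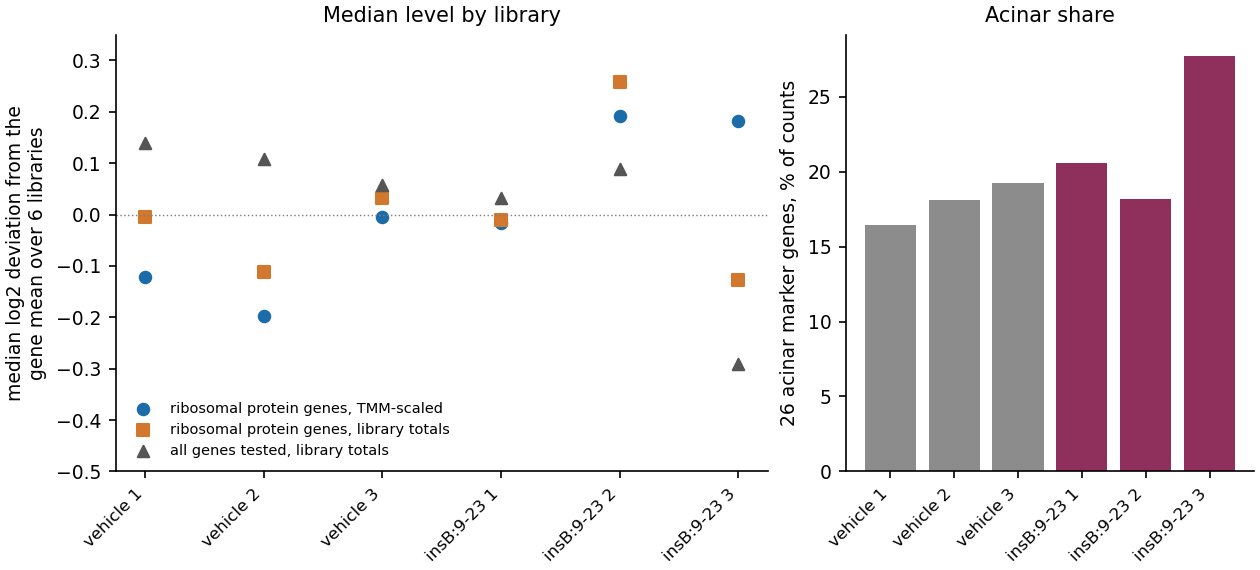
Left, median log2 deviation by library of the ribosomal protein genes under TMM scaling and library totals, and of all genes under library totals; right, share of counts from 26 acinar marker genes. In insB:9-23 3, the library with the highest acinar share, library totals place the members below and TMM scaling above their mean.

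The acinar share was 27.8% in insB:9-23 library 3, which also had the lowest TMM factor (0.806), and 16.5% to 20.6% elsewhere, with 0 of the 26 markers at 0 throughout. The 8 amylase genes, not among these markers, took a further 16.5% in that library and 9.33% to 11.6% elsewhere. The part of the acinar share in the members' shift was not tested. Without that library the members' median log2 fold change was 0.19, with 76 of 80 above 0. Fewer of them were then higher at an unadjusted p under 0.05, as given above. Libraries 1 and 2 of the insB:9-23 group had acinar shares of 20.6% and 18.2%, against 16.5% to 19.2% in the vehicle, so a difference in this share can remain. Markers of B and plasma cells were highest in insB:9-23 library 2, at 0.0166% of counts against at most 0.00601% elsewhere. The same library was highest for T and NK cell markers, at 0.00279% against at most 0.000560%, and for macrophage and dendritic cell markers, at 0.0189% against at most 0.0123%. Their part was not tested either. In bulk islet RNA, more ribosomal protein message per cell and a different mix of cells cannot be told apart.

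Other genes of translation showed smaller median shifts than the members, and edgeR called 0 of them after adjustment. Among 8 elongation factors and related genes, 1 (12.5%), Eef1d, was higher at an unadjusted p under 0.05, against 2.74% of all genes. A fold change above 0 was found in 7 of the 8 (87.5%), against 51.5% of all genes. The median log2 fold change of the list was 0.15, with quartiles of 0.07 and 0.21, against 0.17 and 0.29 for the members. Eef1d, a subunit of the exchange factor of elongation, was at 57.5, 56.9 and 63.1 CPM against 66.7, 65.2 and 73.4 CPM. Of 32 initiation factors and regulators, 3 (9.38%) were higher and 0 lower at that p, against 2.74% of all genes higher, with a median of 0.07. The higher genes included Eif3k (0.29 ± 0.09) and Eif1 (0.19 ± 0.06). In this list 20 genes had a fold change above 0 and 12 did not. The groups lay wholly apart upward in 3 (9.38%) and downward in 3 (9.38%), against 6.4% and 7.12% of all genes.

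Ribosome biogenesis and mitochondrial ribosomal genes did not show the members' shift in their medians. Of 41 tested biogenesis factors, 0 were higher and 3 (7.32%) lower at an unadjusted p under 0.05, against 2.81% of all genes lower. A fold change above 0 was found in 15 (36.6%), against 51.5%. Among all genes at 10 CPM or more, a level most of these factors reached, 4.23% were lower and 44.9% above 0. In 4 biogenesis factors (9.76%) every insB:9-23 library lay below every vehicle library, against 9.83% of genes at that level. The median log2 fold change of the biogenesis factors was -0.03. Nob1, which makes the last cut of the small-subunit RNA, was at 21.2, 20.9 and 23.3 CPM against 15.9, 17.4 and 17.0 CPM, without overlap, at -0.38 ± 0.09 on the log2 scale. Utp20, an early factor, was at -0.28 ± 0.08. Of 78 genes for the separate ribosome of mitochondria, 0 were higher and 1 lower, Mrpl14 at 8.80, 7.5 and 8.75 CPM against 3.14, 5.35 and 3.39 CPM, and the median was 0.02.

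Ribosomal protein genes outside the symbol rule were few. Fau, which encodes a ubiquitin-like protein fused to a ribosomal one, had a log2 fold change of 0.15 ± 0.10. Rpl36al, a retrocopy-derived gene of the large subunit, was at 3.37, 2.92 and 13.8 CPM against 11.9, 6.44 and 71.2 CPM. Its groups overlapped, and its value in insB:9-23 library 3 stood far above those of the other libraries. Rps4l is annotated as a transcribed processed pseudogene, and was at 0 in 4 libraries with 56 counts in vehicle library 2 and 190 counts in insB:9-23 library 3. Rpl36al was named after its values were seen.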

How the data were processed

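Each library came with 1 deposited table, made by the authors, of whole-number read counts for every Ensembl gene identifier. Per the submitters' processing notes, HISAT, featureCounts 1.5.0-p3, DESeq 1.8.3 and the build GRCm38 were used, with no role or order given, and per the labels' protocols total RNA went into a stranded library kit. The sources used here give no annotation release, read length or strand setting. Symbols came from GENCODE M21 and matched 55240 of 55421 identifiers.

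All genes were fitted together with edgeR 4.0.16 (R 4.3.3; filterByExpr, TMM, robust quasi-likelihood F test, Benjamini-Hochberg over 17016 genes), a procedure tested on simulated data. CPM used TMM-scaled library sizes, and SE is the absolute log2 fold change over the square root of F. Alternatives were DESeq2 1.42.0, limma-voom (limma 3.58.1), RLE, upper quartile and library-total scaling, other filters, a replicate block, leaving out each library and, added after seeing the data, summing near-identical copies. Replicate libraries differed beyond sampling noise (chi-square per degree of freedom 80.0 to 247.1).

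Values per library were given for the 3 most abundant per exon length, the 3 with the smallest p and the 3 with the largest log2 fold change in each subunit, for paralogs and their partners, stalk genes, Rpsa and members under 1 CPM, and for at most 2 genes per pathway list. Members and lists were chosen with earlier results of these data known. Chosen after the values were seen were the exon-length and transcript definitions, the 25% limit for copies, the promoter words and the genes named so. Shared 50-base words were sought in GENCODE M21 transcripts on both strands, not in the genome. Of the genes this rule named, 2 are not reported here by name, and they remain in all counts and medians.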

Additional observations from a re-analysis of the deposited data

How the results depend on the processing

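Between the settings, 0 members passed the adjusted threshold except Rpl13 with copies summed (1 member), and the smallest adjusted p of any other member was 0.398, without insB:9-23 library 1. The number of genes called overall was 14 (5 higher and 9 lower), 106 by DESeq2 (54 higher, 52 lower), and without a low-count filter 8 were higher. Leaving out single libraries gave 16 to 26 genes called, 7 to 14 higher and 5 to 18 lower, and 13 to 55 members higher at an unadjusted p. Under library totals alone 0 members were higher at an unadjusted p, and the medians were 0.06267 for all members, 0.0581 for the large and 0.07328 for the small subunit, with reversed log2 fold changes for Rpl4 (-0.08042), Rpl8 (-0.05192), Rplp2 (-0.05845), Rps15 (-0.02589) and Rps6 (-0.02263). Rpl38 turned positive with upper quartile scaling (0.002833) and with a mean of at least 10 CPM (0.01224). The share of counts differed by 0.0516 percentage points between groups, or by 0.266 over protein-coding counts without acinar and amylase genes.

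Leaving out 1 library also reversed members close to 0 or with reads that varied between libraries, whose log2 fold changes ran from -0.1519 to 0.8767 for Rps27, from -0.1003 to 0.4909 for Rps27a, from -0.0445 to 0.3151 for Rpl39, from -0.7458 to 0.5188 for Rpl21, from -0.1772 to 0.06009 for Rpl30 and from -0.1199 to 0.09247 for Rpl38. The cause was not tested.

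The labels state no pairing by replicate number. Deviations of same-numbered libraries correlated at -0.032, -0.069 and -0.0054 across genes, and 0 of 3 vehicle libraries correlated best with their own number. With 3 libraries a group, these values show no pairing but cannot exclude it. With the replicate number as a block, 0 genes were called (0 higher, 0 lower), and 27 members were higher at an unadjusted p. Gm15710 had an adjusted p of 0.364 under the block and of at most 0.02001 under every other setting that tested it as a gene.

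The 3 libraries a group and the split of reads among copies limit these results. No alternative on depth was run, and counts of 0 bound only the counted reads.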
